A study of Mus musculus with 9 samples.

Results

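Expression of 10 genes of the ubiquitin system that are known from terminal erythroid remodelling was followed across Dhh genotypes in erythroblasts sorted from mouse spleen. The genes were chosen by name, as conjugating enzymes, ligases and a ubiquitin gene known to be raised in late erythroblasts. They are Ube2l6, Ube2o, Ube2h, Trim58, Trim10, Fbxo7, Rnf10, Rnf123, Cul4a and Ubb, and each had 1 row among the 20368 genes measured. All 10 passed the filter on low values, at least 1 FPKM (fragments per kilobase of transcript, scaled for library depth) in at least 3 libraries, which 9543 genes passed.

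The cells were spleen cells positive for CD71, the transferrin receptor, and for Ter119, an erythroid surface antigen. They came from 4-week-old C57BL/6 mice of 3 genotypes, Dhh-/- (knockout), Dhh+/- (heterozygous) and wildtype, with 3 RNA-seq libraries each. Dhh encodes Desert hedgehog, a secreted ligand. No Cre or tissue-specific allele is named in the labels. It is not stated there whether the 3 libraries of a genotype are 3 mice, and the p-values given here cover the spread between libraries, which may be technical.

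Ubiquitin is passed from an activating enzyme (E1) to a conjugating enzyme (E2), and a ligase (E3) then directs it to a substrate, which is often degraded by the proteasome. In the last divisions of the erythroid lineage and in the reticulocyte, this system clears ribosomes, organelles, unassembled globin chains and other proteins while globin accumulates. Several of its enzymes are made in large amounts at that stage, when most other transcripts decline.

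Erythroid genes were abundant in every library, and Dhh could not be used to check the genotypes. Over the 9 libraries, the erythroid transcription factor genes Gata1 and Klf1 were at 171 to 254 FPKM and at 309 to 410 FPKM. Dhh (ENSMUSG00000023000), on chromosome 15 from 98891152 to 98898540 in mm10, had 0.0267 FPKM in heterozygous replicate 1 and was listed at 0 in the other 8 libraries, the wildtype ones among them. Depth, taken as the whole reads recovered from the deposited values, ranged from 7.05 to 14.23 M reads (M, mega). Knockout replicate 2, heterozygous replicate 2 and wildtype replicates 1 and 2 had 7.05 to 9.66 M reads and are called the shallower libraries here. The other 5 had 13.05 to 14.23 M and are called the deeper ones. Markers of other blood cells were also detected, and their sums stand beside the results they touch.

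The stretch of 250 bases before the transcription start is printed for 6 of the genes. These are the genes whose window held a match to a motif defined below, and Ubb, whose window held none. The windows of Cul4a, Fbxo7 and Rnf123 nearest the gene start also held none and are not printed. The choice therefore says nothing of a link between motifs and levels. The sequences are from RefSeq on GRCm38.p6, which has the mm10 coordinates, and are written 5′ to 3′ on the strand of the gene. Of the 10 genes, 9 had an entry, and Ube2o had none. Capitals mark matches, on either strand, to a GATA motif (AGATA or TGATA, followed by A or G) or to a CACCC motif (CC, then A or C, then C, then A or G, then CCC). GATA1 and KLF1, the main erythroid transcription factors, are known to bind motifs of these kinds.
Ube2l6 (chr2:84798578-84798827, plus strand): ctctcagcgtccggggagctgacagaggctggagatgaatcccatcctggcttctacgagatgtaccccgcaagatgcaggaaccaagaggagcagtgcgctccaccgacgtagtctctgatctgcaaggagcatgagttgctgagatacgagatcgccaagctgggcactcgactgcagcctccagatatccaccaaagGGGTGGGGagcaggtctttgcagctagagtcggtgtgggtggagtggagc
Rnf10 (chr5:115272896-115273145, minus strand): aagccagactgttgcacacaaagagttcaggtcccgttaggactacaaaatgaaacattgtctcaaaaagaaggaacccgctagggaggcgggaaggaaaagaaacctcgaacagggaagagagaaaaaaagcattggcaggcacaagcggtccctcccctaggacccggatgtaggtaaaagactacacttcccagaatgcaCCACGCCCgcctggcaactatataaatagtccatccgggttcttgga
Ube2h (chr6:30304540-30304789, minus strand): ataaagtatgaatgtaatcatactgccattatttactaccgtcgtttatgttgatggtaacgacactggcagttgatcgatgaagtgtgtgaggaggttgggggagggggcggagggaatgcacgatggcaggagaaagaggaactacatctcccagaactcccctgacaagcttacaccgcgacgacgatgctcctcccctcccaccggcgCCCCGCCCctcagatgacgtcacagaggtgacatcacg
Trim10 (chr17:36869324-36869573, plus strand): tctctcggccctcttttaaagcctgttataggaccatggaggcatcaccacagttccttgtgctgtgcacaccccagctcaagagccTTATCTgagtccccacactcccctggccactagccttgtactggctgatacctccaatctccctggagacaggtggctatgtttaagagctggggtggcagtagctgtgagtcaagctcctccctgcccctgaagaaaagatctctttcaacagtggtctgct
Trim58 (chr11:58640215-58640464, plus strand): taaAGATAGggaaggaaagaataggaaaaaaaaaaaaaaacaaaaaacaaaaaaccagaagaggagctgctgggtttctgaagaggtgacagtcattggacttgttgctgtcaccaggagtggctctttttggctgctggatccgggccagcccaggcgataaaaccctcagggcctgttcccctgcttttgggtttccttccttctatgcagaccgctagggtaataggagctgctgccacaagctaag
Ubb (chr11:62550921-62551170, plus strand): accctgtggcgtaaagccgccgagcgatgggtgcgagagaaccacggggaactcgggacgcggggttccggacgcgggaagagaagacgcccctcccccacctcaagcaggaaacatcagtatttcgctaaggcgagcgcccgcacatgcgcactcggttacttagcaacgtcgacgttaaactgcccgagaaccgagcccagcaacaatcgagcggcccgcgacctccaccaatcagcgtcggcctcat

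A CACCC match stood 50 bases before the start of Ube2l6, read on the opposite strand, 47 bases before that of Rnf10 and 38 bases before that of Ube2h. A GATA match stood 163 bases before the start of Trim10, on the opposite strand, and 247 bases before that of Trim58. The Ubb window nearest the gene start held neither. Counting 1 window per gene, the one nearest the annotated start, 3 of 9 held a CACCC match and 2 of 9 a GATA match, against 27.4% and 26.5% of 32851 mouse promoters of the same length. The Rnf123 window in this count lay 4045 bases from the annotated start. An interferon-response motif (GAAA, 2 bases of any kind and GAAA again, on either strand), searched because Ube2l6 is an interferon-induced gene, was in 0 of the 9 windows and in 2.98% of all promoters. Fbxo7, Ubb and Ube2h each had a further window at another start, which these counts leave out. That of Fbxo7, 182 bases from the annotated start, held an interferon-response match. That of Ubb, 560 bases away, held a CACCC match, and that of Ube2h, 60736 bases away, a GATA match. These matches describe letters, and whether any factor binds there was not measured.

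All 10 genes were among the more abundant transcripts of these cells. By the mean over the 9 libraries, in FPKM, the order was Ube2l6 at 1458, Rnf10 at 1176, Ubb at 872, Trim10 at 817, Ube2o at 536, Rnf123 at 496, Cul4a at 241, Ube2h at 153, Fbxo7 at 148 and Trim58 at 124. Ube2l6 ranked 18th and Trim58 620th by mean FPKM in the whole table. Ube2l6 exceeded Rnf10, Rnf10 exceeded Ubb, Trim10 exceeded Ube2o, Rnf123 exceeded Cul4a and Cul4a exceeded Ube2h in 9 of 9 libraries. Neighbours whose order changed between libraries were Ubb and Trim10 (Ubb higher in 5 of 9), Ube2o and Rnf123 (Ube2o higher in 4 of 9), Ube2h and Fbxo7 (Ube2h higher in 6 of 9) and Fbxo7 and Trim58 (Fbxo7 higher in 8 of 9). The lowest count of any of the 10 genes was 1576 reads, for Trim58. Counting error was not computed, and it may matter for the closest neighbours. Ube2h and Fbxo7 were both at 128 FPKM in knockout replicate 2.

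Among the conjugating enzymes, Ube2l6 had the highest level of the 10 genes. With the deposited scaling it also had the widest spread, a log2 range of 1.35 over the libraries, but under quantile normalization its range was 0.69, below those of Ube2o (0.93), Ube2h (0.93), Ubb (0.89) and Trim58 (0.86). Ube2l6 (ENSMUSG00000027078, chromosome 2, 84798828 to 84810335, plus strand), an E2 that loads ISG15, a ubiquitin-like modifier, and also ubiquitin, was at 1011, 2012 and 1064 FPKM in knockout replicates 1, 2 and 3, at 826, 2111 and 917 FPKM in heterozygous and at 2048, 1947 and 1187 FPKM in wildtype replicates. Each genotype held libraries near 2000 FPKM and libraries near 1000 FPKM, so the 3 ranges overlapped. Ube2o (ENSMUSG00000020802, chromosome 11, 116537740 to 116581447, minus strand), an E2 with ligase activity of its own that acts on ribosomal proteins and unassembled globin in mouse reticulocytes, was at 484, 608 and 424 FPKM in knockout, 359, 727 and 366 FPKM in heterozygous and 772, 680 and 403 FPKM in wildtype libraries. The same libraries were high and low as for Ube2l6.

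Ube2h behaved otherwise. Ube2h (ENSMUSG00000039159, chromosome 6, 30211289 to 30304539, minus strand), the E2 of the CTLH ligase complex, was at 184, 128 and 180 FPKM in knockout, 124, 137 and 151 FPKM in heterozygous and 198, 165 and 113 FPKM in wildtype libraries. Knockout replicate 2, among the highest for Ube2l6, was here among the lowest, and wildtype replicate 3 was the lowest of all.

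Ubb (ENSMUSG00000019505, chromosome 11, 62551171 to 62553213, plus strand), a polyubiquitin gene that supplies the modifier itself, was at 669, 1180 and 691 FPKM in knockout, 556, 1127 and 531 FPKM in heterozygous and 1229, 1115 and 744 FPKM in wildtype libraries. High and low libraries were again those of Ube2l6. Ubb is made of near-identical ubiquitin repeats, so its reads are uncertain where the authors' counting could split them between genes.

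Among the RING ligases, Rnf10 moved with Ube2l6 and Rnf123 did not. Rnf10 (ENSMUSG00000041740, chromosome 5, 115241412 to 115272898, minus strand), known from human cells as a ligase for proteins of the small ribosomal subunit, was at 938, 1484 and 932 FPKM in knockout, 762, 1652 and 809 FPKM in heterozygous and 1504, 1550 and 949 FPKM in wildtype libraries. Rnf123 (ENSMUSG00000041528, chromosome 9, 108051534 to 108083346, minus strand), the catalytic subunit of the KPC ligase that acts on the cell cycle inhibitor p27, was at 544, 412 and 572 FPKM in knockout, 502, 475 and 492 FPKM in heterozygous and 470, 491 and 510 FPKM in wildtype libraries. Its heterozygous and wildtype libraries lay within 470 to 510 FPKM, and the 3 knockout libraries spread on both sides of that range.

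The TRIM ligases lay between these patterns. Trim10 (ENSMUSG00000073400, chromosome 17, 36869574 to 36877833, plus strand), a ligase-type RING protein required for terminal differentiation in mouse erythroid cell lines, was at 845, 760 and 925 FPKM in knockout, 590, 820 and 753 FPKM in heterozygous and 1024, 938 and 699 FPKM in wildtype libraries. Trim58 (ENSMUSG00000037124, chromosome 11, 58640465 to 58652404, plus strand), which directs ubiquitin to the motor protein dynein and aids enucleation in mouse erythroblasts, was at 159, 99.7 and 143 FPKM in knockout, 114, 98.6 and 115 FPKM in heterozygous and 149, 144 and 91.8 FPKM in wildtype libraries. For both genes the knockout and wildtype ranges crossed, and for Trim58 the lowest library was wildtype replicate 3.

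The cullin-based members were the steadiest together with Rnf123. Cul4a (ENSMUSG00000031446, chromosome 8, 13105621 to 13147940, plus strand), the scaffold of the CRL4 ligases, was at 289, 202 and 265 FPKM in knockout, 219, 230 and 233 FPKM in heterozygous and 256, 241 and 229 FPKM in wildtype libraries. Fbxo7 (ENSMUSG00000001786, chromosome 10, 86021972 to 86051873, plus strand), an F-box substrate receptor of SCF ligases that promotes cell cycle exit in mouse erythroblasts, was at 160, 128 and 167 FPKM in knockout, 132, 128 and 146 FPKM in heterozygous and 147, 159 and 166 FPKM in wildtype libraries. Each heterozygous library was below each wildtype library for Fbxo7, and the knockout libraries spanned both.

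**Figure D1:**
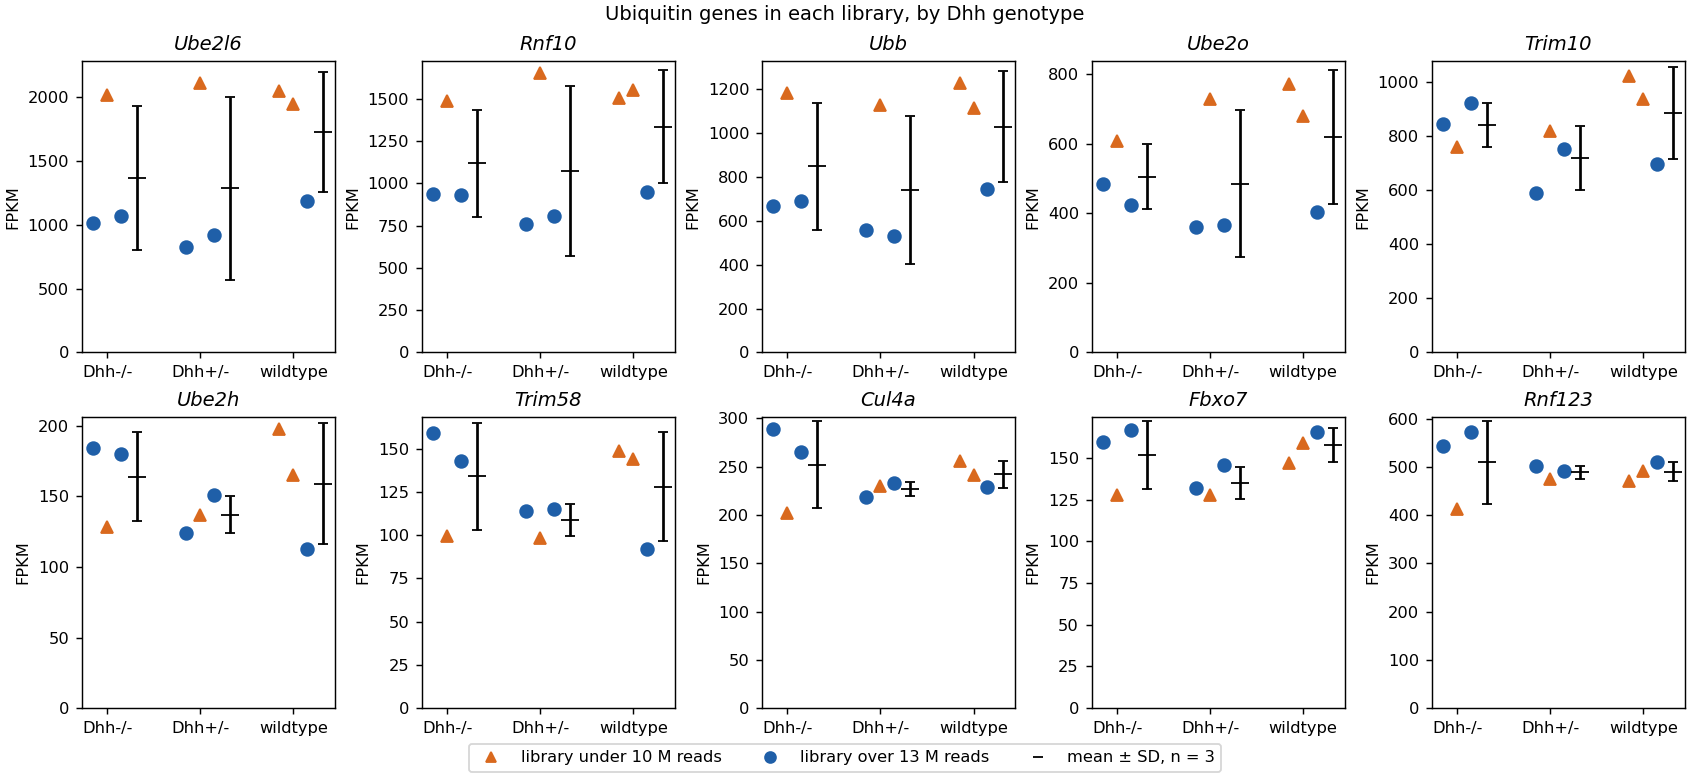
FPKM of the 10 ubiquitin genes in each library, 1 panel per gene, with Dhh-/-, Dhh+/- and wildtype along the x axis and FPKM from 0 on the y axis. Triangles are libraries under 10 M reads, circles those over 13 M reads, and bars give the mean ± SD (n = 3). In the Ube2l6 panel the 4 triangles sit at 1947 to 2111 FPKM and the 5 circles at 826 to 1187 FPKM, whatever the genotype.

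The first question was whether loss of both Dhh alleles changed these genes. None of the 10 passed the test between knockout and wildtype. Limma on log2(FPKM + 1), with Benjamini-Hochberg adjustment over the 9543 tested genes, called 0.0% of all genes at an adjusted p below 0.05, with 43 genes at an unadjusted p below 0.05. Limma-voom on the recovered reads also called 0, with 38 at that unadjusted level. If no gene differed, a share of about 0.05 of the tested genes would on average be at that level. The number was far below that here and in the comparisons that follow, and why was not tested. Absence of a call therefore does not show absence of a difference. Ube2l6 averaged 1362 ± 563 FPKM in knockout and 1727 ± 471 FPKM in wildtype libraries (SD, n = 3 each), a log2 difference of -0.38 ± 0.40 (SE, 95% interval -1.29 to 0.54). Trim10 averaged 843 ± 82.3 FPKM in knockout and 887 ± 169 FPKM in wildtype libraries, a log2 difference of -0.06 ± 0.18. These differences were smaller than the spread between libraries.

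Of the 10 differences between knockout and wildtype, 4 were positive and 6 negative, with a median of -0.06, against a median of 0.00879 and 52.7% positive over all tested genes. Under quantile normalization Trim10 was positive. The positive ones were 0.07 for Ube2h, 0.07 for Trim58, 0.04 for Rnf123 and 0.04 for Cul4a, and the other negative ones were -0.30 for Ubb, -0.26 for Rnf10, -0.25 for Ube2o and -0.06 for Fbxo7. The lowest unadjusted p was 0.377, and the adjusted p in limma was 0.9997 for every member. In 7 of the 10 genes the 95% interval lay within 1 log2 unit on either side, so a 1-unit change was outside it. It was wider for Ube2l6, Rnf10 and Ubb. No member had knockout libraries all above or all below the wildtype ones, which held for 1.08% (above) and 1.4% (below) of all tested genes. In an exact 2-sided permutation test, where 3 libraries against 3 allow no p under 0.1, the lowest of any member was 0.2.

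Heterozygous libraries averaged below wildtype for all 10 genes, but no difference passed the test. Limma called 0.0% of all genes in this comparison, with 113 at an unadjusted p below 0.05, and voom called 0 with 91. The log2 differences ran from -0.54 ± 0.34 for Ubb, at 738 ± 337 FPKM in heterozygous and 1029 ± 254 FPKM in wildtype libraries, to -0.0026 ± 0.14 for Rnf123, at 489 ± 13.7 FPKM in heterozygous and 490 ± 19.8 FPKM in wildtype libraries. Their median was -0.26, against -0.00202 and 49.4% positive over all tested genes. The signs of Rnf123 and Cul4a turned positive under quantile normalization and under scaling to the library total, so 8 of the 10 directions held under both. The wildtype group held 2 of the shallower libraries and the heterozygous group 1. With depth as a term, the differences were -0.41 ± 0.08 for Ubb and -0.37 ± 0.08 for Ube2l6 (SE), against -0.54 ± 0.34 and -0.52 ± 0.40 without it, and no gene passed (limma adjusted p = 0.9987 for both genes).

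Fbxo7 was the 1 member whose heterozygous and wildtype libraries did not overlap. The gap was narrow, between heterozygous replicate 3 at 146 FPKM and wildtype replicate 1 at 147 FPKM, and counting error was not computed. Fbxo7 averaged 135 ± 9.65 FPKM in heterozygous and 158 ± 10.1 FPKM in wildtype libraries (SD, n = 3 each), a log2 difference of -0.22 ± 0.13 with a 95% interval of -0.51 to 0.07. The exact permutation p was 0.1, the smallest that this design can give, and the limma adjusted p was 0.9999. Of all tested genes, 3.07% had heterozygous libraries all below the wildtype ones, and 1.29% had them all above, so 1 member of 10 is no more than a description.

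Knockout libraries averaged above heterozygous ones for all 10 genes, again with no call. Limma called 0.0% of all genes, with 56 at an unadjusted p below 0.05, and voom called 0 with 53. The differences ran from 0.04 ± 0.14 for Rnf123 to 0.27 ± 0.22 for Trim58, which averaged 134 ± 30.9 FPKM in knockout and 109 ± 9.3 FPKM in heterozygous libraries. Ube2h (0.24 ± 0.22), Ubb (0.24 ± 0.34) and Trim10 (0.23 ± 0.18) followed, and the lowest unadjusted p was 0.232. The median was 0.15, against 0.00374 and 51.1% positive over all tested genes. Of the 18 late erythroid genes listed below, 17 were also higher on average in knockout than in heterozygous libraries. Rnf123 turned negative under quantile normalization and library total scaling, Rnf10 under the first only. No member had groups that did not overlap, against 2.61% of genes above and 1.88% below. The 3 comparisons share their libraries in pairs, so their values stand side by side and are not independent of each other.

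**Figure D2:**
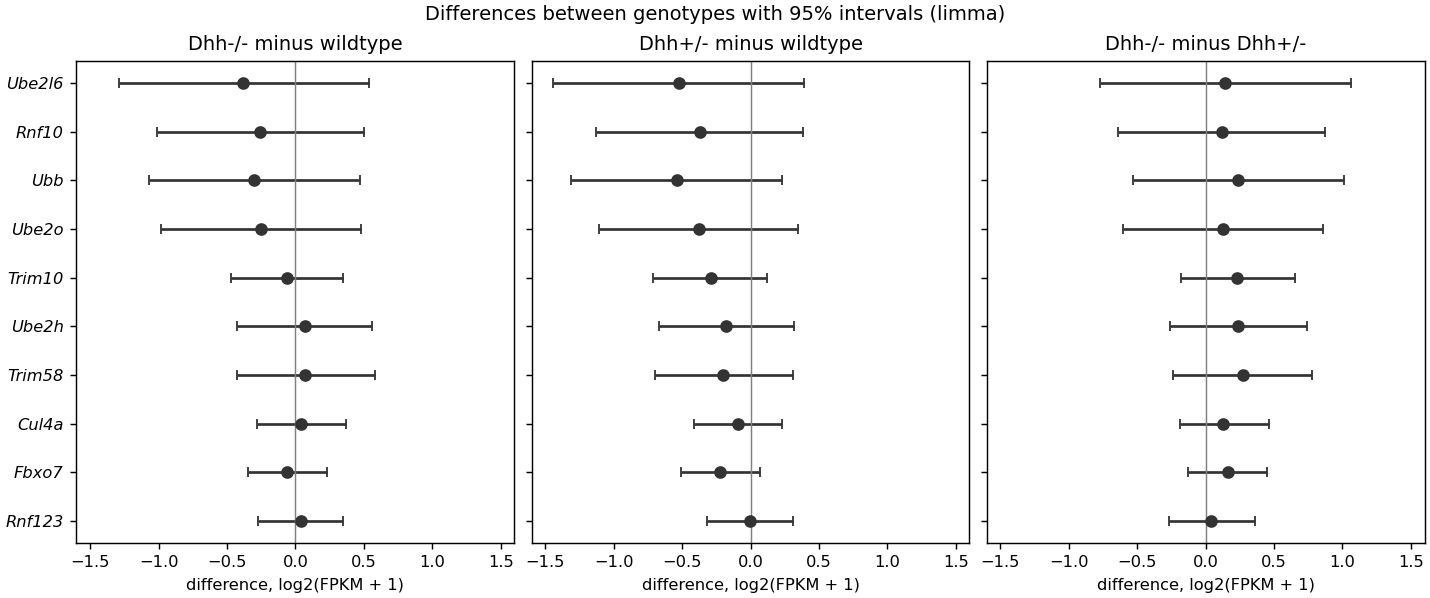
Log2 differences of the 10 genes on the log2(FPKM + 1) scale (x axis) with limma 95% intervals, for Dhh-/- minus wildtype, Dhh+/- minus wildtype and Dhh-/- minus Dhh+/-. Each interval crosses 0. The widest are those of Ube2l6, from -1.29 to 0.54 for Dhh-/- minus wildtype.

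For 4 of the genes, the spread between libraries followed depth. Ube2l6 was at 1947 to 2111 FPKM in the 4 shallower libraries and at 826 to 1187 FPKM in the 5 deeper ones, a ratio of means of 2.03. Rnf10 was at 1484 to 1652 FPKM in shallower and 762 to 949 FPKM in deeper libraries, a ratio of 1.76. Ubb was at 1115 to 1229 FPKM in shallower and 531 to 744 FPKM in deeper libraries, and Ube2o at 608 to 772 FPKM in shallower and 359 to 484 FPKM in deeper libraries, ratios of 1.82 and 1.71. So 4 of the 10 genes were higher in every shallower library than in any deeper one, against 5.66% of all tested genes. Their direction and the absence of overlap also held under quantile normalization and under library total scaling, where the log2 difference of Ube2l6 was 0.63 and 1.02, against 1.03 with the deposited scaling.

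The other 6 genes did not have this order. Rnf123 was lower there, at 412 to 491 FPKM, against 492 to 572 FPKM in the deeper libraries, a ratio of 0.882. It was the 1 member of 10 with this order, which 6.86% of all tested genes had, and its groups overlapped after quantile normalization. Trim10, Ube2h, Trim58, Cul4a and Fbxo7 overlapped, with ratios of 1.16, 1.04, 0.983, 0.941 and 0.911. The SD of log2(FPKM + 1) over the 9 libraries exceeded that of 89.9% of tested genes for Ube2l6, 87.5% for Ubb, 85.7% for Rnf10 and 85.3% for Ube2o, and that of 12.3% for Rnf123, 20.5% for Cul4a and 21.6% for Fbxo7.

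Within each genotype the split of Ube2l6, Rnf10, Ubb and Ube2o had the same direction. The ratio of shallower to deeper libraries for Ube2l6 was 1.94 in knockout, 2.42 in heterozygous and 1.68 in wildtype. For Rnf10 it was 1.59 in knockout, 2.10 in heterozygous and 1.61 in wildtype. For Ubb it was 1.74 in knockout, 2.07 in heterozygous and 1.58 in wildtype, and for Ube2o 1.34 in knockout, 2.01 in heterozygous and 1.80 in wildtype. In all 3 genotypes the shallower side was the higher one. Each genotype has only 1 library on one side of the split, so these ratios have no error of their own. For Trim58 the ratio was 0.659 in knockout, 0.86 in heterozygous and 1.59 in wildtype, and for Ube2h it was 0.703 in knockout, 0.996 in heterozygous and 1.61 in wildtype. In both genes wildtype replicate 3 and knockout replicate 2 were both low, although the first is a deeper and the second a shallower library.

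In reads, the ranges of the 4 genes that split overlapped between shallower and deeper libraries. Rnf10 had 37503 to 47258 reads in shallower and 37527 to 39687 in deeper libraries, and Ube2l6 had 21359 to 26457 in shallower and 18129 to 22007 in deeper ones. Rnf123 had 14932 to 20747 reads in shallower and 29424 to 34232 in deeper libraries, and so followed the total. Higher FPKM in every shallower library was commonest among the most abundant genes, at 48.4% of the 31 genes at a mean of 1000 FPKM or more, 14.6% of the 205 genes at 300 to under 1000 FPKM and 4.22% of the 545 genes at 100 to under 300 FPKM. It was 1.84% of the 3861 genes at 10 to under 100 FPKM and 7.79% of the 4633 genes at 1 to under 10 FPKM. Trim10, whose mean of 817 FPKM lies between those of Ubb and Ube2o, did not split this way. Picard is named in the submitters' processing notes with no role, and whether duplicate reads were removed was not tested.

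**Figure D3:**
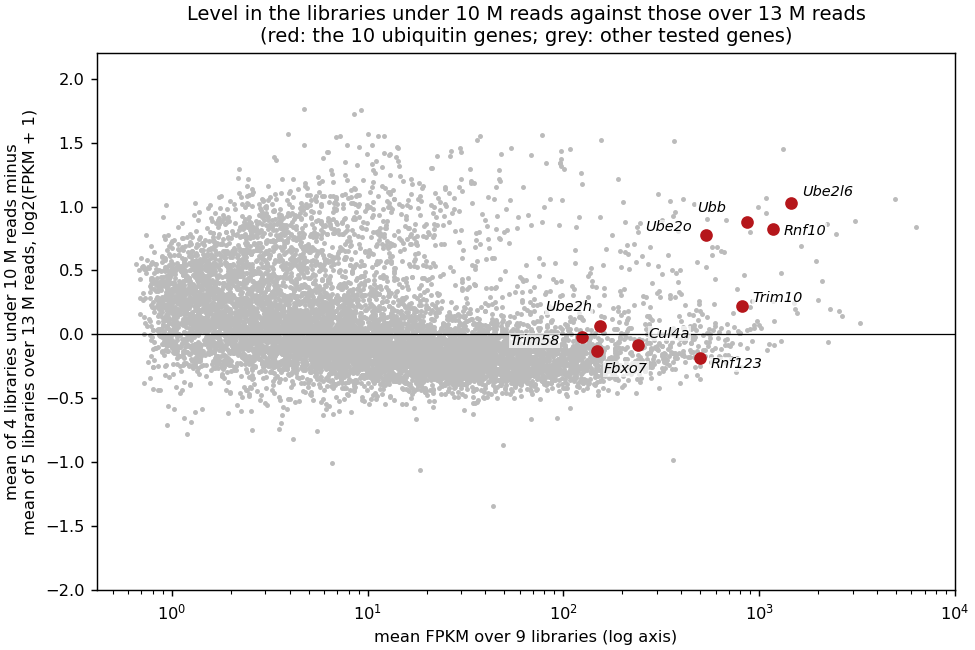
Mean FPKM over 9 libraries (x axis, log scale) against the mean of the 4 shallower libraries minus that of the 5 deeper ones in log2(FPKM + 1) (y axis), for all tested genes (grey) and the 10 ubiquitin genes (red). Ube2l6, Ubb, Rnf10 and Ube2o lie at 0.78 to 1.03, and the other 6 between -0.18 and 0.22.

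Sums of markers of other blood cells also differed between the depth classes, without overlap for T and NK cell and for megakaryocyte markers and with overlap for the others. The summed FPKM of 9 T and NK cell markers was 81.4 to 145 in shallower and 1.53 to 58 in deeper libraries. The 10 macrophage and monocyte markers summed to 694 to 1425 FPKM in shallower and 139 to 898 FPKM in deeper libraries, the 9 B cell markers to 454 to 1310 FPKM in shallower and 82.7 to 777 FPKM in deeper ones, and the 10 neutrophil markers to 763 to 1631 FPKM in shallower and 259 to 1251 FPKM in deeper ones. The 5 megakaryocyte and platelet markers summed to 32.9 to 36.7 FPKM in shallower and 38 to 54 FPKM in deeper libraries, and so were lower in the shallower ones. No marker of these lists was at 0 in all libraries, and wildtype replicate 3 was lowest in the B, T and NK and macrophage sums. The ratio of shallower to deeper libraries for C1qa, a macrophage complement gene, was 3.8 in knockout, 0.896 in heterozygous and 11.2 in wildtype, and for Cd74, an antigen presentation gene, it was 1.8 in knockout, 0.878 in heterozygous and 10.3 in wildtype. For Ube2l6 it was above 1 in all 3 genotypes, as given above. In bulk RNA, fewer cells of a type and less RNA per cell cannot be told apart. With the mean of the leukocyte markers as a term, chosen after seeing the data, limma called 0 genes in each comparison, with 143, 327 and 225 at an unadjusted p below 0.05 for knockout to wildtype, heterozygous to wildtype and knockout to heterozygous. The log2 difference of Ube2l6 was then -0.51 ± 0.30 between knockout and wildtype and -0.62 ± 0.30 between heterozygous and wildtype (SE). The part of these markers in the split by depth was not tested.

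Comparisons within 1 depth class were limited by the few libraries they hold. Among the 5 deeper libraries, where wildtype is replicate 3 alone and is assumed to vary like the other genotypes, Ube2h and Trim58 passed the limma test between knockout and wildtype, with log2 differences of 0.68 (adjusted p = 0.0359) and 0.71 (adjusted p = 0.0203), and 9.73% of all tested genes did. Ube2l6 and Ubb passed between heterozygous and wildtype, at -0.45 each (adjusted p = 0.0405 and 0.026), with 19.5% of all tested genes. No member and 0.0% of genes passed between knockout and heterozygous there, where 1525 genes were at an unadjusted p below 0.05. Among the 4 shallower libraries, where knockout and heterozygous are replicate 2 alone, the knockout to wildtype differences were -0.50 for Ube2h and -0.55 for Trim58, of the opposite sign. Each of these differences from wildtype rests on a genotype with a single library, and they are given as a description.

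Across libraries, the 4 genes that split by depth varied together, and Ube2h, Trim58 and Cul4a did so in another pattern. Pearson correlations of log2(FPKM + 1) over the 9 libraries, which share depth and composition, were 0.95 to 0.99 among Ube2l6, Ube2o, Rnf10 and Ubb. Ube2h and Trim58 had a correlation of 0.92, and Cul4a one of 0.81 with Ube2h and 0.82 with Trim58. Ube2l6 and Trim58 had one of -0.09, and Ube2l6 and Rnf123 one of -0.64. Trim10 stood between, at 0.55 with Ube2l6 and 0.84 with Ube2h. The first 4 genes form separate clusters of libraries by depth, so their correlations include that split and are no more than a description.

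The ratios between genes show how closely some pairs kept together. Ube2l6 was 0.283 to 0.308 times the level of Alas2, the first enzyme of erythroid heme synthesis, in all 9 libraries, while Alas2 itself was at 3284, 6811 and 3523 FPKM in knockout, 2884, 7458 and 2994 FPKM in heterozygous and 7090, 6379 and 4069 FPKM in wildtype libraries. The highest ratio was thus 1.09 times the lowest, although Ube2l6 varied 2.56-fold. These values are with the deposited scaling. Under quantile normalization the log2 difference between shallower and deeper libraries was 0.63 for Ube2l6 and 0.15 for Alas2. Ubb was 0.657 to 0.818 times Rnf10, Ube2h 1.09 to 1.39 times Trim58, and Rnf123 3.06 to 3.81 times Fbxo7. Trim58 was 0.12 to 0.193 times Trim10, a wider range for the TRIM pair. The summed level of the 10 genes was lowest in heterozygous replicate 1, at 4184 FPKM, and highest in wildtype replicate 1, at 7797 FPKM.

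**Figure D4:**
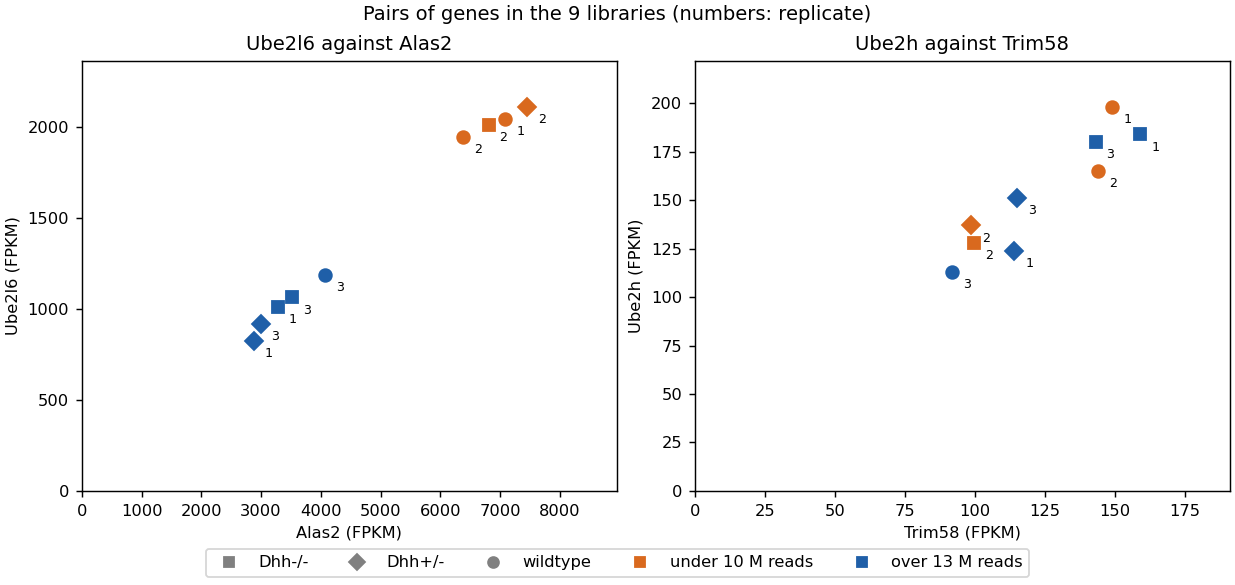
FPKM of Ube2l6 against Alas2 (left) and of Ube2h against Trim58 (right) in each library, with axes from 0. Squares are Dhh-/-, diamonds Dhh+/- and circles wildtype, numbers give the replicate, and orange marks libraries under 10 M reads and blue those over 13 M. The Ube2l6 points fall in 2 clusters by depth, and the Ube2h points do not sort by depth.

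The genes most like each member were found by the same correlation, as a description over 9 libraries. For Ube2l6 they were Hbb-bt (0.998), Alas2 (0.997) and Ccndbp1 (0.995), for Ubb Isg20 (0.997), Ccndbp1 (0.992) and Pttg1 (0.992), and for Rnf10 Adipor1 (0.996), March2 (0.993) and Mkrn1 (0.993). For Ube2o they were Fam46c (0.993), Fam213a (0.990) and Dcaf12 (0.989). The other 6 genes had other neighbours. Ube2h was most like H2-T24 (0.975), Tcp11l2 (0.975) and Itsn1 (0.972), Trim58 like Rab18 (0.980), 3110002H16Rik (0.976) and Mafg (0.970), and Trim10 like Golga7 (0.967), Creg1 (0.964) and Cmas (0.961). Rnf123 was most like Sp3 (0.986), Usp7 (0.976) and Med6 (0.974), Cul4a like Vcpip1 (0.991), Arel1 (0.982) and Rbm18 (0.973), and Fbxo7 like Rab5c (0.973), Zcrb1 (0.951) and Txnl1 (0.950).

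Genes around the members in the ubiquitin pathway were then read from fixed lists, and limma called none of their tested members in any of the 3 comparisons. Of 30 other E2 enzymes 29 were tested, of which 7 were higher on average in knockout than in wildtype and 5 in heterozygous than in wildtype. The most abundant were the cell cycle E2s Ube2c, at 928 ± 48.7 FPKM in knockout, 906 ± 98.6 FPKM in heterozygous and 978 ± 58.7 FPKM in wildtype libraries, and Ube2s, at 724 ± 127 FPKM in knockout, 634 ± 44 FPKM in heterozygous and 720 ± 55.9 FPKM in wildtype libraries. The median difference of the list between shallower and deeper libraries was -0.06, and 5 of the 29 genes were higher and 4 lower in every shallower library than in any deeper one, against 5.66% and 6.86% of all tested genes. Ube2l6 thus had the highest mean FPKM of all the E2 enzymes listed.

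Of 11 E1 enzymes and ubiquitin precursors, all tested, 6 were higher on average in knockout and 4 in heterozygous than in wildtype. Uba7, the E1 for ISG15 that acts before Ube2l6, was at 364 ± 56.9 FPKM in knockout, 309 ± 35 FPKM in heterozygous and 316 ± 30.1 FPKM in wildtype libraries. In the ISG15 and interferon list, 15 of 16 genes were tested, and 12 were higher on average in knockout and 4 in heterozygous than in wildtype, with medians of 0.19 in knockout and -0.16 in heterozygous against wildtype. Its most abundant members were the antiviral gene Rsad2, at 634 ± 101 FPKM in knockout, 573 ± 184 FPKM in heterozygous and 719 ± 213 FPKM in wildtype libraries, and Isg15, at 600 ± 140 FPKM in knockout, 483 ± 112 FPKM in heterozygous and 631 ± 259 FPKM in wildtype libraries. Of the 15, 3 were higher in every shallower library, Isg15 among them, and 0 were lower, against 5.66% and 6.86% of all tested genes.

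The known partners of the ligases gave no call either. All 11 genes of the CTLH ligase, which works with Ube2h, were tested, and 6 were higher on average in knockout and 5 in heterozygous than in wildtype. Ranbp10 was at 444 ± 69.4 FPKM in knockout, 399 ± 16.3 FPKM in heterozygous and 437 ± 41.6 FPKM in wildtype libraries, and Wdr26 at 197 ± 26.6 FPKM in knockout, 179 ± 19.1 FPKM in heterozygous and 199 ± 41.3 FPKM in wildtype libraries. Both are subunits of that complex. Of 26 measured genes of cullin-RING ligases and of partners of Cul4a and Fbxo7, 24 were tested. Among these 24, 10 were higher on average in knockout and 6 in heterozygous than in wildtype. Fbxo9, another F-box receptor, was at 296 ± 41.8 FPKM in knockout, 260 ± 24.5 FPKM in heterozygous and 294 ± 61.2 FPKM in wildtype libraries, and Dcaf12, a receptor of CRL4 ligases, at 260 ± 39.9 FPKM in knockout, 258 ± 83.9 FPKM in heterozygous and 291 ± 63.2 FPKM in wildtype libraries. Dcaf12 was the 1 gene of the 24 that was higher in every shallower library, and Dda1, named after its values were seen, the 1 gene that was lower, against 5.66% and 6.86% of all tested genes.

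For the KPC ligase, its second subunit Ubac1 was at 398 ± 76.3 FPKM in knockout, 360 ± 18 FPKM in heterozygous and 384 ± 32.8 FPKM in wildtype libraries. Its substrate Cdkn1b, the p27 gene, was at 120 ± 33.8 FPKM in knockout, 90.9 ± 14.7 FPKM in heterozygous and 104 ± 24 FPKM in wildtype libraries, and both were higher on average in knockout than in wildtype. Of 10 dynein subunits 8 were tested, 4 of them higher in knockout and 3 in heterozygous than in wildtype. Dynlrb1 was at 40.4 ± 6.08 FPKM in knockout, 45.6 ± 0.587 FPKM in heterozygous and 53.5 ± 4.34 FPKM in wildtype libraries, and Dynll1 at 43.1 ± 3.02 FPKM in knockout, 42 ± 2.46 FPKM in heterozygous and 42.2 ± 7.2 FPKM in wildtype libraries. RNA levels of these subunits say nothing of their removal as proteins, which is the step Trim58 is known for.

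Of 23 other Trim genes 20 were tested, with 12 higher in knockout and 8 in heterozygous than in wildtype. The most abundant was Trim59, at 129 ± 28.6 FPKM in knockout, 116 ± 15.9 FPKM in heterozygous and 114 ± 13.8 FPKM in wildtype libraries, followed by Trim28, a co-repressor, at 88.4 ± 9.75 FPKM in knockout, 87.4 ± 4.47 FPKM in heterozygous and 87.3 ± 6.8 FPKM in wildtype libraries. Trim10 thus stood above every other Trim gene of the list, and Trim58 was close to Trim59. Of 28 deubiquitinases, which remove ubiquitin, 27 were tested, with 18 higher in knockout and 8 in heterozygous than in wildtype. Otud5 was at 485 ± 70.7 FPKM in knockout, 427 ± 18.5 FPKM in heterozygous and 478 ± 69.6 FPKM in wildtype libraries, and Usp15 at 297 ± 4.03 FPKM in knockout, 275 ± 53.4 FPKM in heterozygous and 326 ± 54.5 FPKM in wildtype libraries.

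Genes of late erythroid maturation split by depth as well, with the deposited scaling. Of this list, other scalings were read for Alas2 only. Its log2 difference between shallower and deeper libraries was 1.06 with the deposited and 1.04 with library total scaling. Under quantile normalization it was 0.15 and the libraries overlapped. Of 18 such genes, 10 were higher in every shallower library than in any deeper one and 0 were lower, against 5.66% and 6.86% of all tested genes. Their median log2 difference was 0.52, against -0.04 over all tested genes. Hbb-bs, the adult beta-globin gene, was at 4646, 8129 and 5118 FPKM in knockout, 4022, 8985 and 4212 FPKM in heterozygous and 8711, 7642 and 5453 FPKM in wildtype libraries. Between genotypes, 2 of the 18 were higher on average in knockout and 0 in heterozygous than in wildtype, with medians of -0.23 in knockout and -0.29 in heterozygous against wildtype, and no call. Of 10 earlier erythroid and progenitor genes 9 were tested, with 3 higher in knockout and 5 in heterozygous than in wildtype.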

How the data were processed

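The authors deposited 1 table of FPKM values for 20368 genes in 9 libraries. Per the submitters' processing notes, TopHat, Picard, DESeq2 and the build mm10 were used, with no version or role. Annotation, strandedness and read pairing: not given in the sources used here. Overlapping and antisense genes can therefore share reads. Of the 14147 genes above 0 in 2 or more libraries, 100.0% had values corresponding to whole reads within 0.05 of a read. For genes above 0 in few libraries, such a match would be found for almost any values. The check thus rests on genes above 0 in all or most libraries, of which 11276 were above 0 in all 9. Library factors were equal to median-of-ratios factors over these 11276 genes. Depth is the sum of the recovered reads. Positions come from GENCODE M21 by Ensembl identifier (20028 rows matched). A symbol was lacking for 180 rows.

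The scale of analysis was log2(FPKM + 1), which understates the changes of low genes. Genes reaching 1 FPKM in 3 or more libraries were tested by limma 3.58.1 in R 4.3.3, with a mean per genotype over all 9 libraries. The fit had an eBayes trend, 2-sided contrasts and a Benjamini-Hochberg threshold of 0.05. It was tried on simulated counts without a split between depth classes, so that trial does not give its power in these data. Limma-voom on recovered reads was an alternative. Python 3.11.15, numpy 2.4.6 and pandas 2.3.3 did the rest. The members and the lists were chosen with earlier results of these data known, and the promoter motifs after seeing the data. Named beside the members were, per member, the 3 tested genes with the highest correlation, and per list, the genes called or otherwise the 2 most abundant, with Dhh, Alas2, Hbb-bs, Cd74 and C1qa. Some genes that this rule names are not reported here.

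The labels number the replicates but name no shared litter, batch or day. Libraries with the same number deviated from the means of their genotypes with a correlation of 0.197, 0.183 and 0.407 between knockout and heterozygous libraries (numbers 1, 2 and 3). Since all 3 exceed 0.1, the number was treated as a possible pairing there, with a replicate block as an alternative fit. In these genotypes numbers 1 and 3 are deeper and number 2 shallower libraries, so a pairing and the depth class cannot be told apart. Wildtype replicate 1 is a shallower library. The correlations were -0.568, 0.508 and 0.326 between knockout and wildtype and 0.128, 0.181 and 0.00143 between heterozygous and wildtype.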

Additional observations from a re-analysis of the deposited data

How the results depend on the processing

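For each pair of genotypes, other scalings, filters, pseudocounts, variance models, terms and subsets, and the omission of each library, left the count of called genes at 0 with 2 exceptions, both chosen after seeing the data. With only the 5 deeper libraries (wildtype is then 1 library) limma called 929 genes between knockout and wildtype and 1864 between heterozygous and wildtype, and with only the 4 shallower ones (knockout and heterozygous are then 1 library each, with 1 residual degree of freedom) it called 3, 1 and 3 genes for knockout to wildtype, heterozygous to wildtype and knockout to heterozygous. With the replicate block the count was 0 for each pair, with 66 genes at an unadjusted p below 0.05 for knockout to heterozygous, and no call changed. Over 510 differences of the 10 genes under the alternatives other than these depth subsets, the lowest adjusted p was 0.8628 in limma and limma-voom. Under library total scaling, the median log2 difference of all tested genes was 0.0429, 0.0843 and -0.0486 for the 3 pairs. With the deposited scaling it was 0.00879, -0.00202 and 0.00374.

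Signs changed as follows, and the cause was not tested. Between knockout and wildtype, in the 4 shallower libraries, the differences were 0.011 for Ube2l6, -0.50 for Ube2h, -0.55 for Trim58, -0.22 for Rnf123, -0.30 for Cul4a and 0.012 for Ubb. In the 5 deeper ones they were 0.17 for Ube2o and 0.34 for Trim10, and Trim10 was at 0.11 under quantile normalization. Between heterozygous and wildtype, in the shallower libraries, they were 0.081 for Ube2l6, 0.0056 for Ube2o and 0.11 for Rnf10, and in the deeper ones 0.27 for Ube2h and 0.32 for Trim58. Rnf123 was at 0.21 under quantile normalization, 0.097 under library total scaling and 0.017 with a leukocyte marker term, and Cul4a at 0.065 and 0.0093 under the 2 scalings. Between knockout and heterozygous, in the shallower libraries, they were -0.070 for Ube2l6, -0.26 for Ube2o, -0.097 for Ube2h, -0.11 for Trim10, -0.15 for Rnf10, -0.20 for Rnf123 and -0.19 for Cul4a. Quantile normalization gave -0.012 for Rnf10 and -0.064 for Rnf123, and library total scaling -0.017 for Rnf123.

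Leaving out each library in turn changed no call. The differences whose sign changed ranged, for knockout to wildtype, from -0.061 to 0.20 (Cul4a), -0.13 to 0.055 (Fbxo7), -0.050 to 0.19 (Rnf123), -0.22 to 0.054 (Trim10), -0.15 to 0.27 (Trim58) and -0.16 to 0.24 (Ube2h). For heterozygous to wildtype they ranged from -0.032 to 0.026 (Rnf123) and -0.40 to 0.0032 (Ube2h), and for knockout to heterozygous from -0.10 to 0.47 (Rnf10), -0.048 to 0.19 (Rnf123), -0.028 to 0.59 (Ubb), -0.17 to 0.57 (Ube2l6) and -0.046 to 0.46 (Ube2o).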
